A study of Mus musculus with 8 samples.

Results

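Interferon-stimulated genes are the genes that cells switch on when an interferon binds its receptor, and 51 of them were followed here among the 48440 genes of the deposited table. They were chosen by name, from a list of antiviral effectors, nucleic acid sensors, signalling factors and interferon-inducible GTPases, and each of the 51 had a row in the table. The list was split into 35 members labelled type I-like and 16 labelled gamma-like, the latter being Irf1, Irf8, the guanylate-binding proteins (Gbp) and the immunity-related GTPases (Iigp1, Igtp, Irgm1, Irgm2, Tgtp1, Tgtp2). The series compared jejunal epithelial cells of germ-free mice, which had been raised without microbes, with those of littermates that were given a microbiota. All animals were females carrying the Sox9-EGFP reporter, in which Sox9 regulatory sequence drives a green fluorescent protein, on a C57BL/6J background. At 8 to 10 weeks of age, a member of each of 4 littermate pairs (A to D) was picked at random, moved to another animal facility and gavaged with fecal slurry from conventionally raised mice of the same colony. These 4 mice are called conventionalized, and they and their 4 germ-free littermates were sampled 2 weeks later. The move between facilities and the microbiota came together and cannot be told apart. From each mouse, cells with low reporter fluorescence (Sox9-EGFP Low) were sorted, with a gate that removed cells positive for Sytox-blue, CD45, CD31 or Annexin-V, and each library is 1 such sorted sample.

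Type I and type III interferons signal through the kinases Jak1 and Tyk2 to a complex that holds Stat2 and Irf9 and binds the interferon-stimulated response element (ISRE) in promoters of genes such as Isg15, Ifit and Oas. Interferon gamma signals through the gamma-activated site (GAS) in promoters and induces Irf1, the Gbp genes and the immunity-related GTPases, and many promoters respond to both routes. In intestinal epithelium these genes are part of the defence against viruses and intracellular microbes. Usp18 removes the ubiquitin-like protein Isg15 from its targets and also blocks signalling at the receptor subunit Ifnar2, so that it is both an interferon-stimulated gene and an inhibitor of the response.

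Promoter windows from RefSeq (GRCm38.p6, 250 bases before to 50 bases after each start) were matched for 35 of the 51 members. Those not matched, and so not searched, were Usp18, Dhx58, Zbp1, Oas2, Mx1, Mx2, Ifi27, Ifi27l2a, Ifi27l2b, Parp9, Parp14, Gbp4, Gbp6, Gbp8, Gbp9 and Iigp1. The ISRE was searched as GAAANNGAAA, which reads TTTCNNTTTC on the other strand, and the GAS as TTCNNNGAA, which reads the same on both strands. The 2 patterns may overlap. An ISRE match was present in 23 of the 35 members (65.7%), against 3.99% of 27025 genes with a window, and a GAS match in 12 (34.3%), against 9.55%. Among type I-like members 14 of 24 (58.3%) had an ISRE match and 4 (16.7%) a GAS match, and among gamma-like members 9 of 11 (81.8%) and 8 (72.7%) did. A match is a description of the letters, not a shown binding site. The stretches printed are from matched members that the comparisons turn on, with Isg15 and Tgtp2 as examples of the 2 patterns, and capitals mark the matched letters.
Bst2, chr8:71537573-71537622, minus strand: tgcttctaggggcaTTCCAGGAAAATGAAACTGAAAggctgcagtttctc
Isg15, chr4:156200861-156200910, minus strand: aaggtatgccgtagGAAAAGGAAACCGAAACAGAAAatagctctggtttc
Tgtp2, chr11:49064259-49064307, minus strand: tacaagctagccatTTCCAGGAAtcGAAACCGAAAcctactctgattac
Irf8, chr8:120736173-120736227, plus strand: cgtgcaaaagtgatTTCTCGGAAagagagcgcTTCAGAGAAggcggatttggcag
Isg20, chr7:78913337-78913373, plus strand: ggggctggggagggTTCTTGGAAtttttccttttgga
In Bst2 a GAS match runs into 2 overlapping ISRE matches, starting 136 bases before the RefSeq start, which is not the end of the gene span given with its levels. Isg15 holds 3 overlapping ISRE matches from 78 bases before its RefSeq start. Tgtp2 holds a GAS and an ISRE match side by side, Irf8 holds 2 GAS matches and Isg20 holds 1. No match was found in the windows of Irf9, Irf7, Oasl1, Oasl2, Cmpk2, Xaf1, Ifi44 and Dtx3l.

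Levels are given as CPM, the share of a library's total count, scaled between libraries, and each log2 fold change is conventionalized over germ-free on the log2(CPM + 0.5) scale, which understates the change of low genes. The libraries held about 6209041 to 19139763 reads, so that 1 read was worth 0.0522 to 0.161 CPM before the scaling between libraries. These figures are approximate and rest on genes with 1 transcript. Pair C's germ-free library was unlike the rest, with a median correlation of 0.792 with its own group against 0.871 to 0.943 for the other libraries, and the conventionalized library of pair A had a summed goblet cell marker level of 51558 CPM against 1635 to 8268 CPM in the others. Of 35 leukocyte markers 34 did not reach the expression minimum. The T cell receptor subunit Cd3e was at most 1.53 CPM and Ptprc (CD45), the gated marker, was between 2.60 and 19.5 CPM. Stem cell markers, which the low reporter fraction is known for, were all 10 above the minimum, summing to 5332 to 10568 CPM in libraries of conventionalized mice and 836 to 5522 CPM in germ-free ones, and the 20 enteroendocrine markers were also all above it.

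In conventionalized mice Usp18 was far below its germ-free level, and it was the only member called in the main fit, which leaves out the littermate pairs. With the pair as a block, given below, 4 other members were called higher, where 8.08% of all tested genes were. Usp18 was singled out with its direction in these data already known. Its p-value and rank therefore describe it and are not an independent test. Of the 51 members 25 reached the expression minimum (at least 10 CPM in at least 4 libraries) and were tested, 20 of the 35 type I-like and 5 of the 16 gamma-like. Of these 25, 0 were called higher and 1, Usp18, was called lower in conventionalized mice (limma without the littermate block, Benjamini-Hochberg adjusted over 10053 tested genes, two-sided, 4 against 4 libraries). Over all tested genes 1.16% were called higher and 3.76% lower, together 4.92%. At an unadjusted p under 0.05, 7 members were higher and 2 lower, against 19.7% and 8.12% of all tested genes, or 27.8% in all. Of the other 24 tested members, 21 had a positive log2 fold change and Isg20, Ifi27 and Ddx58 a negative one, and over all tested genes 70.2% were positive. The median of the 25 was 0.57 and that of all tested genes was 0.32, so the members' values are read against a shifted background. With library size as the only scaling the median of all tested genes was 0.09. No member passed the minimum through the conventionalized group alone, and 15 were at 10 CPM or more in all 8 libraries.

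**Figure D1:**
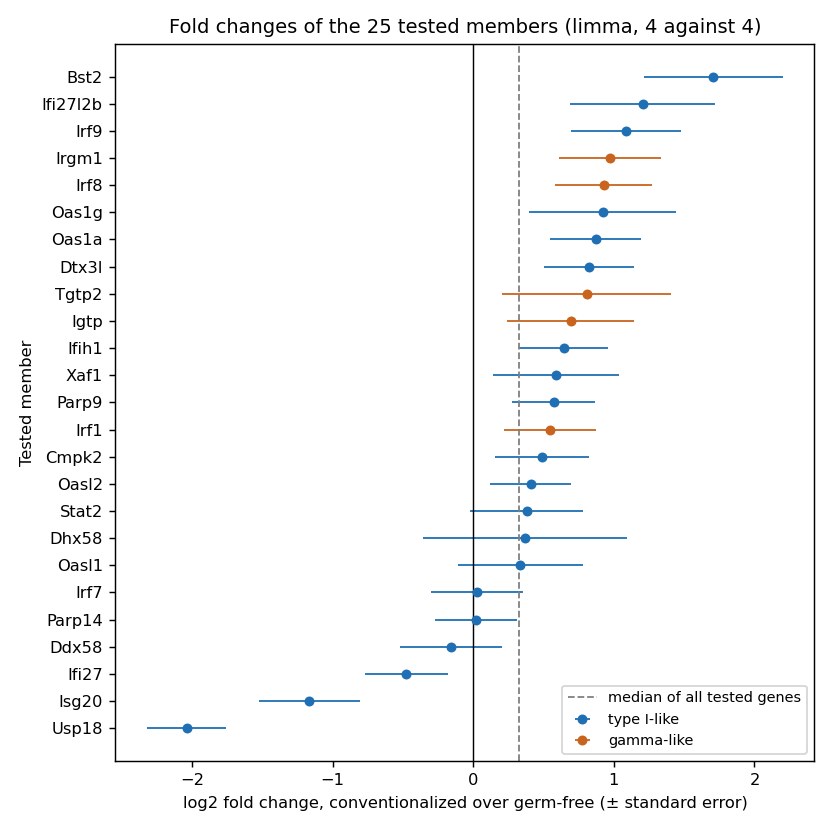
Log2 fold change of each of the 25 tested members, conventionalized over germ-free, with its standard error as a bar and the classes in separate colours. Usp18 lies lowest at -2.04 and Bst2 highest at 1.71, and the median of all tested genes is 0.32.

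Usp18 (ENSMUSG00000030107.10, chr6:121245906-121270917 in mm10, plus strand, 4 annotated transcripts) was at 22.0, 15.5, 20.9 and 21.6 CPM in the conventionalized mice of pairs A to D. It was at 113, 61.6, 95.6 and 71.2 CPM in their germ-free littermates. Every conventionalized library was below every germ-free one, and the groups did not overlap, as was so for 5.88% of all tested genes in this direction. The means were 20.0017 ± 3.05 and 85.4 ± 23.4 CPM (SD, n = 4 each), a log2 fold change of -2.04 (SE 0.28, limma adjusted p = 0.00548), or 4.11-fold more in germ-free mice, and Usp18 ranked 6 of 10053 genes by p. Within pairs A to D the log2 differences were -2.34, -1.96, -2.17 and -1.70, lower in 4 of 4 pairs. Over 25 alternative settings the value stayed between -2.27 and -1.89 with adjusted p between 1.87e-07 and 0.0717, and it was called in 24. The exception left out pair A, with -1.94 and adjusted p = 0.0717, and in that fit no tested gene was called lower. In bulk samples such as these, fewer cells of a type that carry a transcript and less of it per cell cannot be told apart.

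The genes most like Usp18 in level were picked by correlation from the 10053 tested genes, of which 24 are other members. The 5 tested genes of highest Pearson correlation with it over the 8 libraries were 9530053A07Rik (r = 0.996), Ccdc92b (r = 0.994), Tpst1 (r = 0.991), B630019K06Rik (r = 0.987) and Cxxc5 (r = 0.987), and all 5 were called lower in conventionalized mice. After subtraction of group means the same genes gave r of 0.936, 0.959, 0.957, 0.821 and 0.847. These values describe 8 libraries that share the group difference, and they carry no test. None of the 5 was a member, but with so few members among the tested genes this says nothing about them. That all 5 were called lower follows largely from picking genes so like Usp18. Enteroendocrine markers, genes of the hormone-secreting epithelial cells, moved in the same direction as Usp18. All 20 of them were tested, 10 were called lower (limma, adjusted p under 0.05) and 0 higher, and their median log2 fold change was -1.76. Their summed level was 17297, 11581, 23027 and 28777 CPM with a microbiota (pairs A to D) and 109979, 59400, 63656 and 46113 CPM without. Chga, which encodes a granin of enteroendocrine secretory granules, averaged 2411 ± 1284 CPM in conventionalized mice and 10631 ± 4062 CPM in their littermates (SD, n = 4 each). A few abundant markers weigh most in the sum, such as Gip at 23174 and Chgb at 21664 CPM in the germ-free library of pair A. Of the 20 markers, 13 were lower with groups that did not overlap, against 5.88% of all tested genes, and in the others the groups overlapped. The lowest library of all in both Usp18 and the marker sum was the conventionalized one of pair B, and the highest in both was the germ-free one of pair A. Other libraries did not keep the same order. Among conventionalized mice Usp18 was highest in pair A and the marker sum in pair D. Among germ-free mice Usp18 was lowest in pair B and the marker sum in pair D. Endothelial and stromal markers had sums of 43.3 to 76.3 CPM against 108 to 178 CPM, but 11 of the 14 did not reach the minimum. The largest part of the sum in each library was 1 gene, Vim, so the sums do not describe the whole list. Vim was at 22.8 to 32.0 CPM in conventionalized mice and 136, 78.7, 69.7 and 26.2 CPM in germ-free ones (pairs A to D). Of the 3 tested, 1, Pecam1, was called lower. Pecam1 encodes CD31, a marker that the sort gate removed. Of the enterocyte markers 18 were tested, and 5 were called lower (Nt5e, Slc15a1, Cyp3a11, Sis and Krt20, from -2.83 to -1.82) and 1 higher, with sums of 2036 to 6138 CPM against 3165 to 6914 CPM. All 8 tested tuft cell markers had negative values, with a median of -0.92, and 0 were called, with sums of 104 to 872 CPM against 374 to 954 CPM. The part of these marker sets in the Usp18 result was not tested.

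**Figure D2:**
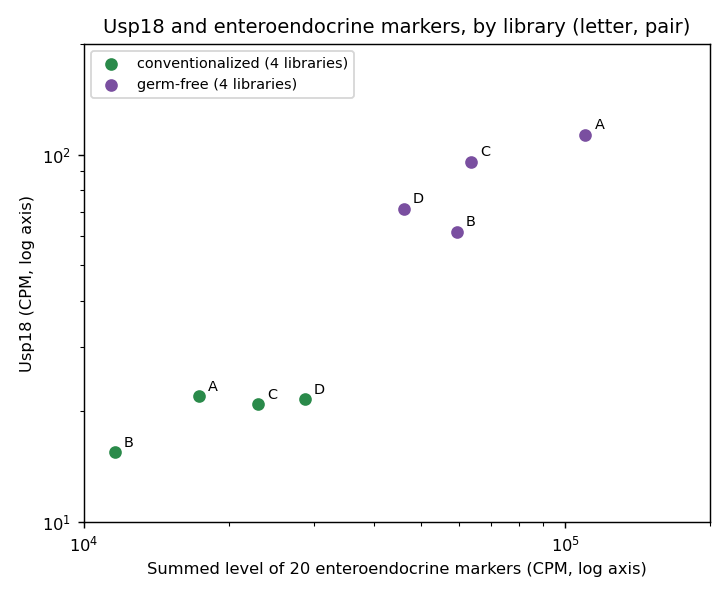
Usp18 level against the summed level of 20 enteroendocrine markers in each library, both in scaled CPM on log axes, with letters for the littermate pairs. The 4 conventionalized libraries lie between 15.5 and 22.0 CPM of Usp18 and the 4 germ-free ones between 61.6 and 113 CPM, and the marker sums are apart in the same way. A few abundant markers weigh most in the sums.

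An antisense long noncoding RNA, Gm44148 (chr6:121255203-121272685), overlaps 124 of the 2790 exon bases of Usp18, and the sources used here do not state that counting used strand. Gm44148 was at 0.268 to 2.17 CPM in all 8 libraries. The neighbour Pex26, a peroxisome import factor, had a log2 fold change of -0.00 (limma adjusted p = 0.996). Isg15, the protein that Usp18 removes from targets, did not reach the minimum. It was at 14.9, 3.37, 3.70 and 8.16 CPM in conventionalized mice and 3.83, 4.90, 4.13 and 4.66 CPM in germ-free mice, so that only the conventionalized library of pair A exceeded 10 CPM. Among 7 other genes of Isg15 conjugation and removal 5 were tested and 0 were called. Those of lowest p were Usp14, a proteasome-bound deubiquitinase (0.44, adjusted p = 0.26), and Uba7, the activating enzyme for Isg15 (0.35, adjusted p = 0.462).

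Isg20, a 3′ to 5′ exonuclease that degrades viral RNA, was the other tested member with a log2 fold change under -1. It was at 15.1, 16.6, 23.4 and 23.7 CPM in conventionalized mice of pairs A to D and 80.1, 42.2, 47.0 and 23.4 CPM in germ-free mice. The groups met in pair D, whose littermates were at the same level, while the germ-free mice of pairs A to C were higher. The log2 fold change was -1.17 (SE 0.36, limma adjusted p = 0.0774), which did not pass. It passed when the germ-free library of pair C (-1.15, adjusted p = 0.024) or pair D (-1.46, adjusted p = 0.0273) was left out. Isg20 also passed with library size as the only scaling (-1.39, adjusted p = 0.0462) and with sample weights. The last setting where it passed left out germ-free mouse C and conventionalized mouse A together, making 5 of 25 alternatives.

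Bst2 (chr8:71534255-71537456, minus strand), known as tetherin, which holds budding virus at the cell surface, had the highest positive value of the members. It was at 53.1, 23.7, 25 and 35.2 CPM in conventionalized mice and 12.4, 21.9, 2.87 and 10.2 CPM in germ-free mice. The groups did not overlap, although the lowest conventionalized and highest germ-free library were close, both being of pair B. The log2 fold change was 1.71 (SE 0.49, limma adjusted p = 0.0661), and it passed on leaving out germ-free mouse B (2.06, adjusted p = 0.0177) or C (1.16, adjusted p = 0.0234). Counting these, Bst2 passed in 7 of 25 alternatives. Groups that did not overlap were also seen, with the conventionalized mice higher, in Irf9 and Ifih1, 3 of 25 members in all against 9.03% of all tested genes.

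Of the 5 transcription factors, 0 were called, and Irf9 and Irf8 had the highest values. Irf9 (chr14:55603571-55610030), the DNA-binding subunit of the type I complex, was at 50.2, 42.0, 32.1 and 44.3 CPM against 29.2, 30.5, 7.66 and 20.1 CPM. Its lowest library by far was the germ-free one of pair C, and its log2 fold change of 1.09 (SE 0.39, limma adjusted p = 0.119) was 0.64 without that library. Irf8 (chr8:120736358-120756694), which partners other factors at composite sites, was at 233, 139, 121 and 239.9 CPM against 87.9, 117, 55.9 and 124 CPM, and the groups overlapped by the germ-free library of pair D. Its log2 fold change was 0.93 (SE 0.34, adjusted p = 0.126). Irf1, which is induced by interferon gamma, was at 365, 198, 170.1 and 348 CPM against 181, 195, 153 and 175 CPM, with high values in the conventionalized mice of pairs A and D (0.54, adjusted p = 0.269). Irf7, which amplifies type I interferon production, was at 120.2, 45.9, 51.7 and 77.2 CPM against 87.4, 61.5, 53.1 and 71.5 CPM and had a log2 fold change of 0.03 (adjusted p = 0.962). Stat2 had 0.38 (adjusted p = 0.534).

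With the littermate pair as a block in the limma fit, 4 members were called higher, Bst2 (adjusted p = 0.0246), Irf9 (0.0417), Irf8 (0.0454) and Irgm1 (0.0464), and Usp18 remained called lower (0.00156). In that paired fit 8.08% of all tested genes were called higher and 5.02% lower, 13.1% in all, against 4.92% without the block. Without pair C, whose germ-free library was unlike the rest, the blocked fit called Bst2 (1.31, adjusted p = 0.0404) and Usp18, and Irf9 (0.79, adjusted p = 0.199), Irf8 (0.88, adjusted p = 0.17) and Irgm1 (0.84, adjusted p = 0.175) were not called.

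**Figure D3:**
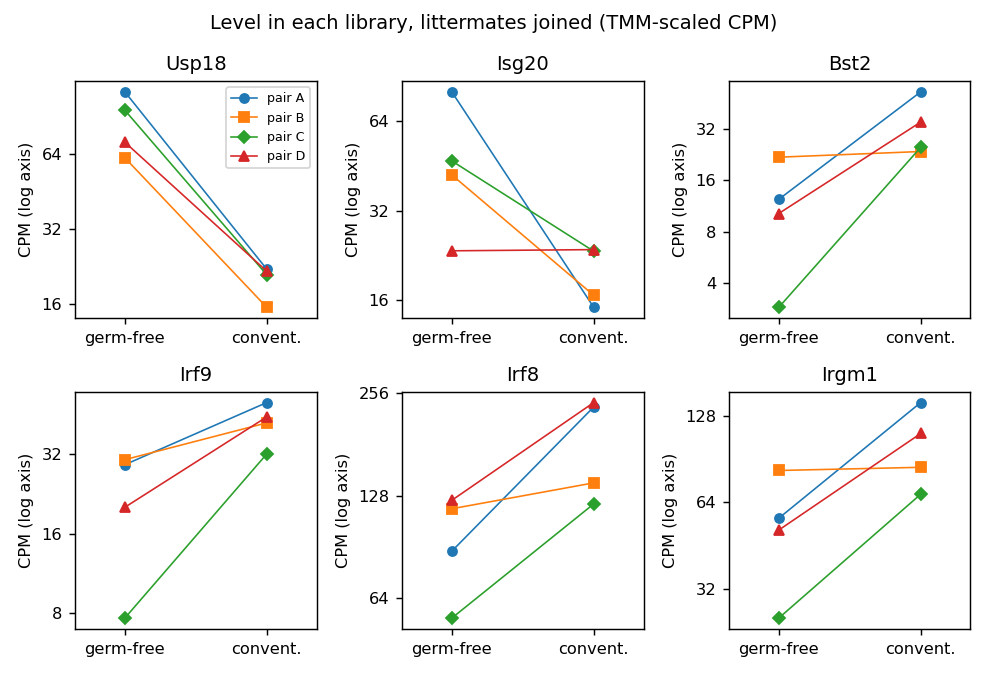
Level of 6 members in each library, in scaled CPM on log axes, with littermates joined by a line and pairs named by letter. Usp18 is lower in the conventionalized mouse of every pair, and Irf9, Irf8, Bst2 and Irgm1 are higher in every pair, while Isg20 is level in pair D.

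Of the 5 nucleic acid sensors 3 were tested and 0 were called. Ifih1 (MDA5) was at 16.2, 13.9, 15.3 and 19.2 CPM in conventionalized mice and 7.81, 8.37, 13.2 and 12 CPM in germ-free littermates, a log2 fold change of 0.64 (limma adjusted p = 0.199) with groups that did not overlap. Ddx58 (RIG-I) had -0.16 (adjusted p = 0.784), and Dhx58 (LGP2), a relative without the signalling domain, had 0.37 (adjusted p = 0.748). Ddx60 and Zbp1, a sensor of Z-form nucleic acid, were not tested, and Zbp1 peaked at 33.7 CPM in the conventionalized library of pair A.

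The Oas genes encode synthetases of 2′-5′ oligoadenylate, the activator of RNase L, and 4 of the 6 were tested. Oas1a was at 110.1, 48.3, 45.8 and 78.3 CPM in conventionalized mice and 35.9, 48.6, 28.0 and 34.0 CPM in germ-free littermates (0.87, limma adjusted p = 0.126). Oas1g had 0.92 (adjusted p = 0.244), but 40.9% of the 100-base stretches of Oas1a transcripts also occur in Oas1g, so reads of 100 bases could be assigned to either. Oasl1 and Oasl2, relatives of which the products act on RNA sensing, had 0.33 (adjusted p = 0.627) and 0.41 (adjusted p = 0.341). No Ifit gene, which encode proteins that bind viral RNA, reached the minimum, and Ifit1 peaked at 12.3 CPM in the conventionalized library of pair A.

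Of the remaining antiviral and interferon-inducible genes, none was called. Cmpk2, a mitochondrial nucleotide kinase, had a log2 fold change of 0.49 (limma adjusted p = 0.32). Xaf1, which binds the apoptosis inhibitor XIAP, was at 24.2 CPM in the conventionalized library of pair A and at 3.66 to 11.4 CPM in the other 7 libraries (0.59, adjusted p = 0.376). Ifi27l2b was at 823, 133, 193 and 318 CPM against 178, 191, 66.7 and 104 CPM (1.20, adjusted p = 0.158), with its highest value again in that library. Its relative Ifi27 was lower in conventionalized mice, at 92.3, 57.7, 69.1 and 103 CPM against 149, 112, 82.5 and 104 CPM (-0.48, adjusted p = 0.279). That held in 4 of 4 pairs, with a log2 difference of only -0.02 in pair D. In pair B Ifi27l2b was lower in the conventionalized mouse as well. Among the genes of ADP-ribosylation, Parp9 had 0.57 (adjusted p = 0.214) and Parp14 had 0.02 (adjusted p = 0.97). Dtx3l, the ubiquitin ligase that partners Parp9, was at 45.8, 51.4, 21.9 and 27.2 CPM against 22.5, 21.8, 17.2 and 16.2 CPM (0.82, adjusted p = 0.138), and it shares 458 exon bases with Parp9 on the opposite strand.

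The immunity-related GTPases, which disrupt vacuoles that hold intracellular microbes, gave the 3 tested gamma-like members besides Irf1 and Irf8. Irgm1 (chr11:48861968-48871683, minus strand), a regulator of the family, was at 142, 84.8, 68.4 and 111 CPM in conventionalized mice and 56.4, 82.6, 25.4 and 51.3 CPM in germ-free littermates. It was higher in the conventionalized mouse of each pair, by 0.04 in pair B, and its log2 fold change was 0.97 (SE 0.36, limma adjusted p = 0.127). Igtp was at 39.7, 11.1, 9.52 and 28.8 CPM against 10.7, 17.4, 7.93 and 11.4 CPM (0.69, adjusted p = 0.303). Tgtp2 was at 20.1, 7.27, 10.2 and 19.1 CPM against 3.10, 15.7, 2.79 and 18.2 CPM (0.81, adjusted p = 0.368), and 76.8% of its 100-base stretches are shared with Tgtp1. The summed level of the 6 GTPase genes was 228, 111, 98.5 and 184 CPM against 75, 128, 46.1 and 87.2 CPM, with conventionalized mice lower in pair B.

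None of the 8 Gbp genes reached the minimum. Their summed level was 38.2, 26.2, 23.2 and 33.8 CPM in conventionalized mice and 27.5, 29.4, 57.5 and 42.8 CPM in germ-free littermates, so that the groups overlapped and the highest sum was germ-free pair C. With a minimum of 1 CPM, 49 members were tested, and of the 24 added, 15 had a positive and 9 a negative log2 fold change with a median of 0.26, against 0.03 for all 18340 genes. Only Gbp8 was called among those added, where 2.91% of all genes were. Gbp8 was at 3.06, 2.03, 1.46 and 4.89 CPM in conventionalized mice and 6.71, 8.91, 18.3 and 18.2 CPM in germ-free littermates, a log2 fold change of -1.99 (SE 0.48, limma adjusted p = 0.0343), the direction of Usp18. The other untested members that reached 10 CPM in any library were Oas3 (at most 11.3 CPM), Ifi44 (11.5), Gbp4 (10.9), Gbp6 (10.9), Gbp7 (11.9) and Irgm2 (15.6), and the 16 others stayed under 10 CPM. For Gbp6, 64.5% of the 100-base stretches occur in another gene.

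**Figure D4:**
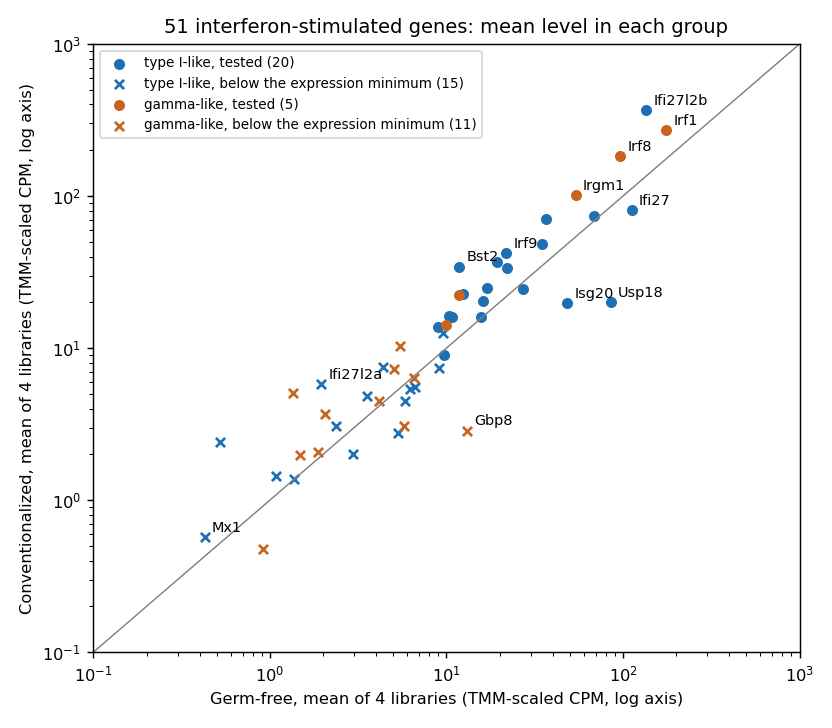
Mean level of the 51 members in germ-free libraries (horizontal) and conventionalized libraries (vertical), in scaled CPM on log axes, coloured by class, with circles for tested and crosses for untested members and a line of equal levels. Usp18 lies far under the diagonal at 85.4 and 20.0017 CPM, and the Gbp genes lie at low levels in both groups.

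Set side by side, the type I-like members had 16 positive and 4 negative log2 fold changes and a median of 0.45 (0.49 without Usp18), and the 5 gamma-like members were all positive with a median of 0.81, against 0.32 for all tested genes. The difference between the classes was not tested, and the gamma-like value rests on 5 genes of 16, with no Gbp gene among them. Values differed between the pairs. In pairs A to D, 20, 15, 16 and 20 of the 25 members were higher in the conventionalized littermate, with medians of 1.01, 0.11, 0.17 and 0.65, while 68.3%, 54.8%, 63.1% and 70.4% of all tested genes were higher. The gamma-like medians were 1.40, 0.02, 1.11 and 0.99, and the type I-like medians 1.0, 0.21, 0.11 and 0.37. In pair A the conventionalized library held the high goblet cell marker sum, and in pair C the germ-free library correlated least with its group. Stem cell markers had positive log2 fold changes in 10 of 10, with a median of 1.41 and 1, Lgr5, called higher. Their sum was 836 CPM in that germ-free library, which also held the lowest levels of Irf9, Irf8, Bst2 and Irgm1, and 3398 to 5522 CPM in the other germ-free ones. The part of these measures in the members' values was not tested. Of the 25 members 11 were higher in 4 of 4 pairs, as were 28.4% of all tested genes, and Usp18 and Ifi27 were lower in 4 of 4, as were 9.89%. Leukocyte markers, whose cells also express many of these genes, had sums of 78.7 to 127 CPM in conventionalized mice and 73.7 to 82.5 CPM in the others, and 1 of 35 was tested and called higher, the actin bundler Lcp1 (1.29, adjusted p = 0.0397). Without Lcp1 the other 34 markers summed to 32.6, 52.5, 57.5 and 21.7 CPM in conventionalized mice of pairs A to D and 57.7, 41.8, 57.6 and 49.8 CPM in their littermates, so that the groups overlapped and the conventionalized mouse was not higher except in pair B. Their part in the members' values was not tested.

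**Figure D5:**
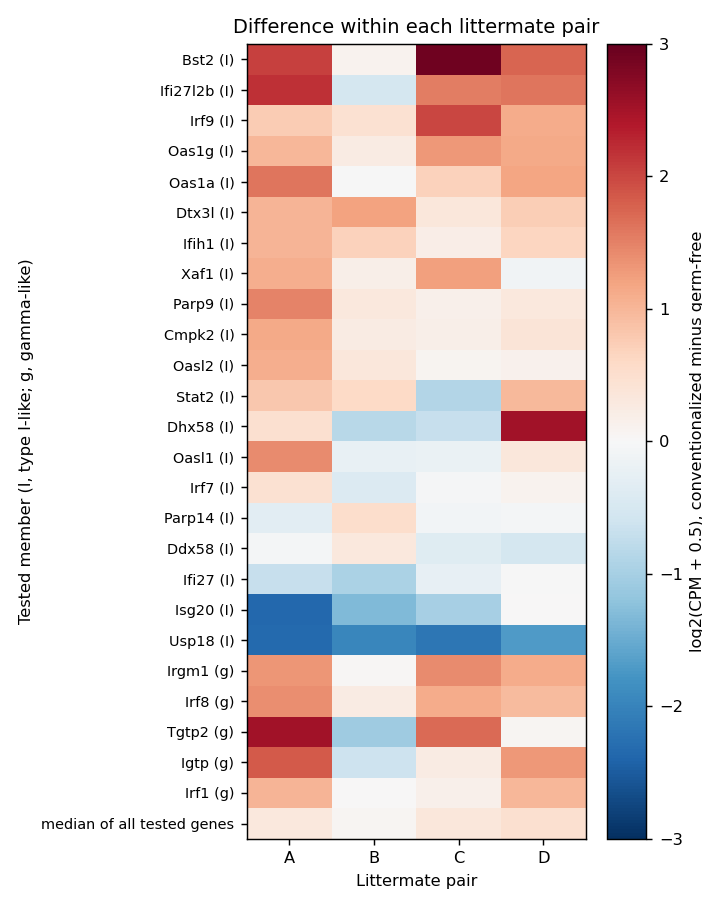
Log2 difference, conventionalized minus germ-free, of each tested member in each littermate pair, in a colour scale, with the median of all tested genes in the last line. Usp18 is lower in all 4 pairs, from -2.34 to -1.70, and most other members are higher in pairs A and D, with medians over all members of 1.01 and 0.65.

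Of the rest of the pathway, 59 of 111 listed genes were tested and 0 were called (13 higher and 1 lower at an unadjusted p under 0.05, against 19.7% and 8.12% of all tested genes). Their median was 0.40, against 0.32 for all tested genes. None of the 21 interferon genes was tested, their highest level in a library was 4.48 CPM, and 3 were at 0 in all libraries. Of the receptors 5 of 6 were tested. Ifngr2, a chain of the interferon gamma receptor, was at 224, 154, 133 and 199.7 CPM against 101, 142, 48.1 and 73.6 CPM (1.04, limma adjusted p = 0.0984), and Ifngr1 had 0.78 (adjusted p = 0.165). The type I receptor chains Ifnar1 and Ifnar2 had 0.13 (adjusted p = 0.771) and -0.11 (adjusted p = 0.837). The kinase Tyk2 had 0.40 (adjusted p = 0.318), and the inhibitors Ptpn2, a phosphatase of JAK kinases, and Irf2bp1 had 0.67 (adjusted p = 0.161) and 0.54. Myd88 and Mavs, the adaptors of Toll-like and RNA sensors, had 0.78 (adjusted p = 0.158) and 0.71 (adjusted p = 0.204). Among other responsive genes the lowest p belonged to Slfn9 (1.15, adjusted p = 0.0513) and Epsti1 (1.08, adjusted p = 0.087). With the littermate block, Ifngr2 (adjusted p = 0.0392), Ifitm3 (0.0456), Slfn9 (0.0213) and Epsti1 (0.045) were called higher and 0 were called lower, 4 of 59 where 8.08% of all tested genes were called higher.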

How the data were processed

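RNA from sorted cells of 8 mice was made into libraries from 10 ng of total RNA with a low-input kit and read as single ends, per the labels' protocols. Per the submitters' processing notes, the build was mm10 and the tools included DESeq2 1.12.4 (in R 3.3.1), STAR 2.4.2a and Trimmomatic 0.36. The series text also names Salmon. The deposited values are a signal per gene: estimated counts that appear to be divided by a library factor and, where a gene has more than 1 transcript, by a further factor of that gene. In genes with 1 transcript 99.8% of the low values were whole multiples of a library step (tolerance 0.02), and in genes with several 26.7% were, so whole reads could not be recovered and no count model was used. No source used here gives the lanes.

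Values were converted to CPM, scaled by trimmed means of log ratios (TMM, trimming 30% and 5%), and tested with limma 3.58.1 in R 4.3.3 (trend and robust empirical Bayes) on log2(CPM + 0.5). The 10053 genes that reached 10 CPM in 4 or more libraries entered 1 fit of condition, adjusted by Benjamini-Hochberg and called under 0.05. The littermate labels pair the libraries, since littermates share a litter. Deviations from the group means correlated within pairs A to D at 0.14, -0.16, 0.31 and -0.01. The block was an alternative. The p-values measure the spread between 4 mice a group. The members and lists were chosen with earlier results of these data known. Every tested member is named, with untested ones named if a library reached 10 CPM, and the 2 genes of lowest p in each pathway list, except 1 gene that is not reported here. Gene symbols and overlaps are from GENCODE M21. Alternatives were other scalings, pseudocounts of 0.1 and 2, other minimums, limma settings, the block and libraries or pairs left out.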

Additional observations from a re-analysis of the deposited data

Results flagged for a closer look

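In each group of 4 libraries the highest or lowest library of each tested member was set against the rest by Dixon's criterion, and 2 of 50 groups stood out. Chance flags about 1 in 20 groups (5%), so 2 of 50 is no more than chance would give. Usp18 was lowest in the conventionalized library of pair B, at 15.5 CPM against 20.9 to 22.0 CPM in the other 3 conventionalized libraries. Xaf1 was highest in the conventionalized library of pair A, at 24.2 CPM against 9.20 to 11 CPM in the others. That library also held the highest level of Ifi27l2b and of the summed goblet cell markers.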

How the results depend on the processing

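Usp18 was called in 24 of 25 alternatives. Over those leaving out a library or pair its log2 fold change ran from -2.21 to -1.89, and without pair A it was -1.94 and not called. No tested gene was called lower in the fit without pair A. The numbers of members called (0 higher and 1 lower) moved with the setting. Library size alone gave 3 lower (all type I-like). Upper-quartile scaling gave 1 higher (2 type I-like called). A 1 CPM minimum gave 2 lower (1 gamma-like). Sample weights gave 4 higher and 2 lower (5 type I-like, 1 gamma-like), and the littermate block gave 4 higher (3 type I-like, 2 gamma-like). The block without pair C, chosen after seeing the data, gave 1 higher (2 type I-like). Leaving out libraries or pairs gave 0 to 2 higher, 0 to 2 lower and 0 to 3 type I-like. All genes called higher (117) became 263 with upper-quartile scaling, 45 with no minimum, 765 with weights (608 lower), 812 with the block and 1 to 410 with libraries or pairs left out (0 to 407 lower).

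Of the 585 values of the other members, 542 stayed uncalled with the same direction, 20 passed where they had not and 23 changed sign, in 6 members. None of the other members was called in the main fit, so none could lose a call. Irf7 was -0.21 and Parp14 -0.21 with library size alone, and Parp14 was -0.029 with weights. With libraries or pairs left out Irf7 ran from -0.35 to 0.22, Parp14 from -0.12 to 0.13, Ddx58 from -0.33 to 0.13, Oasl1 from -0.20 to 0.67, Dhx58 from -0.49 to 0.54 and Xaf1 from -0.069 to 0.75. The cause of these moves was not tested. For members near 10 CPM, 1 read is worth up to about 0.161 CPM before the scaling between libraries, and the part of depth was not tested.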
